A study of Homo sapiens with 7 samples.

Results

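The 38 genes described here encode the lysosome and its proton pump, and they were taken by symbol from the 20072 symbols of a table of expression values for HCT116, an established human colorectal carcinoma cell line. They were 6 lysosomal membrane protein genes (LAMP1, LAMP2, CD63, SCARB2, NPC1 and MCOLN1), 18 genes of lumenal hydrolases and their cofactors, 5 genes of the membrane-embedded V0 sector of the vacuolar ATPase (V-ATPase) and its accessory subunit, 8 genes of the cytosolic V1 sector, and TFEB. The cells were in log-phase growth in serum-free medium with epidermal growth factor, insulin and transferrin, and no treatment, genotype or time was compared. Transcription rate (TR) was measured by GRO-seq in 2 libraries, where nuclei extend the nascent RNA with bromo-UTP and the labelled RNA is sequenced. Steady-state mRNA abundance (RA) was measured by RNA-seq in 3 libraries, and translation activity (TA) was measured in 2 libraries of mRNA from polysome fractions of cells given cycloheximide and lysed with Triton X100. Each parameter had its own protocol, so parameter and assay cannot be told apart. All libraries came from 1 cell line, and the text that describes them calls them biological replicates without saying what separated them, so p-values measure the spread between these libraries.

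Lysosomes break down proteins, lipids and sugars with acid hydrolases, which are made on the endoplasmic reticulum, pass through the Golgi and in large part follow mannose 6-phosphate receptors to the organelle. The V-ATPase acidifies the lumen: the V1 sector, made on free ribosomes in the cytosol, hydrolyses ATP, and the V0 sector in the membrane carries the protons across. TFEB is a transcription factor that binds E-box elements of the CLEAR type (coordinated lysosomal expression and regulation) in promoters of many of these genes and is held in the cytoplasm by mTORC1 in well-fed cells.

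The promoters are shown first because the genes are often treated as 1 transcriptional program, and the nascent RNA of GRO-seq starts there. RefSeq promoter windows (GRCh38.p14) of 300 bases, from 250 before to 50 after the transcript start, were found for 28 of the 38 genes, and 10588 of the genes tested had such a window. CACGTG, the core E-box, lay in 10 of the 28 windows and in 9.76% of all windows. The longer TCACGTGA lay in 6 of the 28 and in 1.76% of all, and the full CLEAR palindrome of 10 bases, which adds a G before it and a C after it, in 3 of the 28 and in 0.708% of all. Each of these motifs reads the same on both strands, and each longer one contains the shorter. LAMP1 had 6 copies of CACGTG in its window, MCOLN1, CTSA, GAA and ATP6V0B had 2 each, and the other 5 had 1. One window of 28 bases is given for each of the 10 genes, on the strand of the gene, with the longest motif in capitals; the match is a description and not evidence that a factor was bound.
LAMP1: acccgcgggaTCACGTGAcgcccgggcg
CD63: cgggtaggggcCACGTGgccctggccgg
MCOLN1: ggctaccggGTCACGTGACcgaggcaca
CTSA: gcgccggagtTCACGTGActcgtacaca
CTSD: ccggccgcgccCACGTGaccggtccggg
NEU1: tgctgcgtgatCACGTGggaggagatga
GAA: ggaggccgcGTCACGTGACccaccgcgg
ATP6V0B: cggcgtggggtCACGTGgtaccggcgca
ATP6V0D1: ccccttatggTCACGTGAggcgcttgcg
ATP6V1G1: cgctgtgcgGTCACGTGACaacgggggc

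In GRCh38.p14 these lie at chr13:113297200-113297227 (LAMP1, plus strand), chr12:55729173-55729200 (CD63, minus), chr19:7522599-7522626 (MCOLN1, plus), chr20:45891299-45891326 (CTSA, plus), chr11:1763958-1763985 (CTSD, minus), chr6:31862931-31862958 (NEU1, minus), chr17:80101494-80101521 (GAA, plus), chr1:43974892-43974919 (ATP6V0B, plus), chr16:67481200-67481227 (ATP6V0D1, minus) and chr9:114587700-114587727 (ATP6V1G1, plus). Relative to the transcript start, the motif centre stood between -177 (CD63) and -11 (MCOLN1) bases. The genes with the full palindrome did not share a level: MCOLN1 had a mean of 16.4 RPKM (reads per kilobase of exon, scaled to the mapped reads of the library) in TR, GAA 36.2 and ATP6V1G1 25.1. ATP6V1G1 encodes a cytosolic subunit, MCOLN1 a membrane channel and GAA a lumenal glucosidase, so the palindrome was found in genes of 3 of the role groups.

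The 7 libraries held 3391897 to 30805391 mapped reads, a 9.08-fold range, with the TR libraries the smallest. Among the 38 genes, the reads behind a value ran from 56 (ATP6V0E1 in the first TR library) to 63681 (PSAP in the first TA library). All 38 genes had at least 1 RPKM in at least 1 parameter and were among the 14305 genes tested. The epithelial markers EPCAM, CDH1, KRT8, KRT18 and KRT19 were present in every library, the lowest value being 20 RPKM for CDH1 in TR. VIL1 was at 5.81 and 7.59 RPKM in TR and at 0 to 0.0356 RPKM in RA and TA. The markers of leukocytes, T cells, endothelium and liver (PTPRC, CD3E, PECAM1 and ALB) were at or below 0.437 RPKM in every library. CD68, a macrophage marker that is itself a lysosomal membrane glycoprotein, was at 11.4 to 44.5 RPKM in RA and TA, and COL1A1 at 3.33 to 13.8. Both were higher in TR, at 53.8 and 59 RPKM for CD68 and 18.9 and 16.4 for COL1A1. GFAP and HBB reached 4.31 and 4.71 RPKM in TR and at most 0.0787 RPKM in RA and TA.

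Most lysosome and V-ATPase genes stood higher in RA than in TR. In polysomes 30 of the 38 stood higher than in total mRNA, against 4402 of the 14305 genes tested. Of these 30, 10 passed the test described below: 8 lysosomal genes with ATP6AP1 and ATP6V0B. The stability index is RA minus TR and the translation index TA minus RA, both on the log2(RPKM + 0.1) scale, which slightly understates changes of low genes. A gene was called where limma's moderated test over all genes tested gave a Benjamini-Hochberg adjusted p under 0.05. In the stability index 26 of the 38 genes were called above 0, against 19.2% of all genes tested, and 2 were called below 0, against 48% of all. In the translation index 10 of the 38 were called above 0, against 6.66% of all genes tested, and 0 below, against 29.2% of all. Before adjustment 17 genes had p under 0.05 above 0 in the translation index and 1, ATP6V1D, below 0. With limma voom on reads worked out from the RPKM values, 11 were called above in that index and 1, again ATP6V1D, below. Voom called 22 above 0 and 2 below in the stability index. Those above 0 held 10 lumenal genes in place of 12, and 5 V1 genes in place of 7. Shares over all genes were not counted for voom or for unadjusted p. An index of 0 means an equal share of the reads in both libraries, not equal molecules, and in bulk libraries fewer expressing cells and less RNA per cell cannot be told apart. The median over all genes tested was -0.58 for stability and -0.37 for translation, and the medians over the 38 genes were 0.82 and 0.55. With each library centred on its own median, which shifts every gene alike, 33 of the 38 were called above 0 and 1 below in the stability index, against 35.4% and 33.7% of all genes tested, and 26 above and 0 below in the translation index, against 19% and 9.81%. A narrower set of 10825 genes reached 1 RPKM in all of TR, RA and TA, which leaves out many genes that are transcribed with little mRNA, and its medians were -0.17 and -0.28. There 25 of the 38 were called above 0 and 2 below in the stability index, against 24.3% and 33.8% of that set, and 10 above and 1 below in the translation index, against 8.87% and 29.8%.

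**Figure D1:**
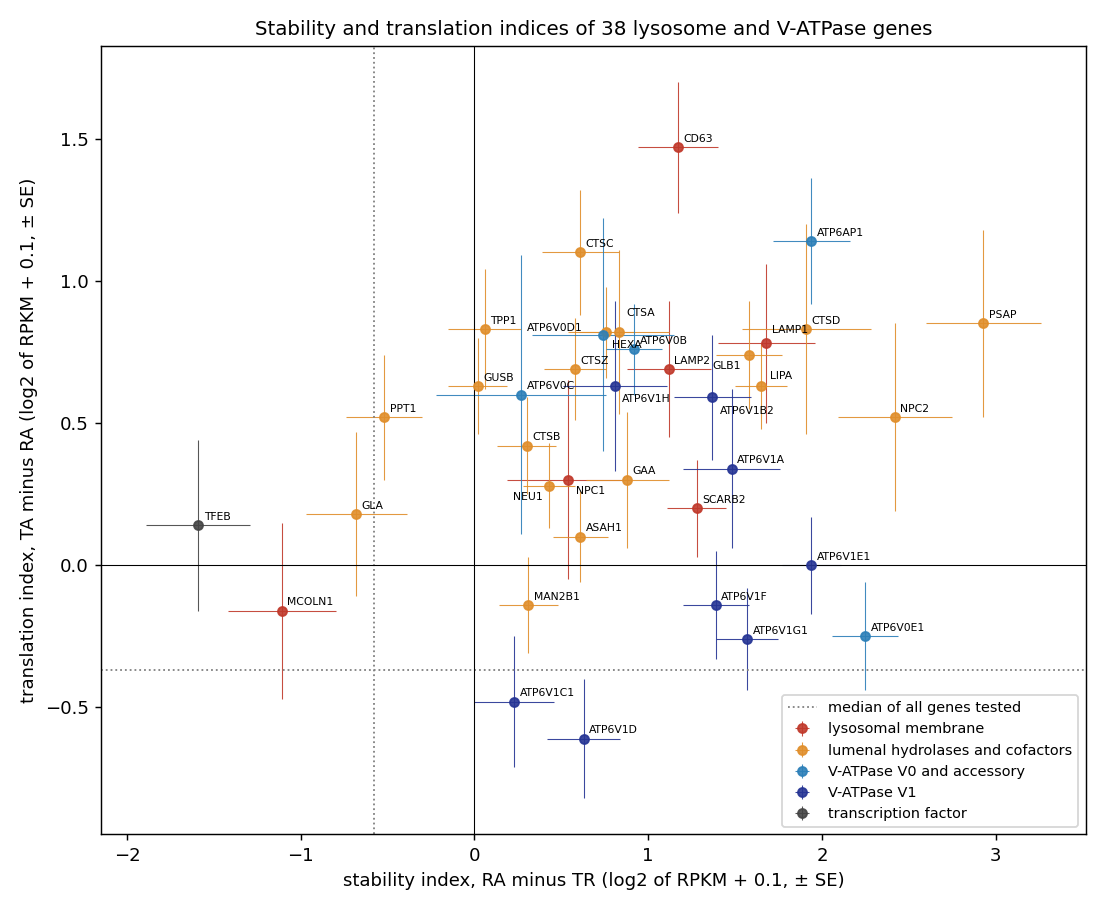
Stability index (x axis) and translation index (y axis) of the 38 genes, both in log2 of RPKM + 0.1, with 1 point per gene coloured by role and bars of 1 limma standard error; dotted lines are the medians of all 14305 genes tested. Most genes lie to the right of and above both dotted lines, the lowest points on the y axis are V1 subunits, and TFEB and MCOLN1 stand at the left.

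Of the membrane proteins, CD63, a tetraspanin of late endosomes and lysosomes, had the highest translation index of the 38 genes. CD63 (chr12:56119107-56123491 in hg19, minus strand) was at 62.3 and 44.9 RPKM in TR, at 105, 134 and 120 in RA, and at 370 and 295 in TA, in order of replicate number. The TA libraries stood above every RA library, and these above both TR libraries. Its translation index was 1.47 ± 0.23 (limma SE; a 2.78-fold level), with an adjusted p of 0.0042 by limma, and it lay above 99.9% of the genes tested. That CD63 stood high in this index was known from an earlier look at these data, so it is not independent evidence.

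LAMP1 (chr13:113951554-113977987, plus strand), a heavily glycosylated structural protein of the lysosomal membrane, was at 42 and 23.5 RPKM in TR, 120, 83.7 and 103 in RA, and 165 and 184 in TA. The 3 parameters did not overlap. Its stability index was 1.68 ± 0.28 (limma SE, adjusted p = 0.00085) and its translation index 0.78 ± 0.28, which was not called (limma adjusted p = 0.058). LAMP2, its paralogue with a part in chaperone-mediated autophagy, was lower, with a mean of 13.1 RPKM in RA and 21 in TA, and had a stability index of 1.12 that was called and a translation index of 0.69 that was not.

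SCARB2 (chr4:77079890-77155689, minus strand), the receptor that carries glucocerebrosidase to the lysosome, was at 18.2 and 16.5 RPKM in TR, 38.6, 40.3 and 48.7 in RA, and 44.7 and 52.6 in TA. RA and TR were apart, and RA and TA overlapped. Its stability index of 1.28 ± 0.17 was called (limma adjusted p = 0.0003) and its translation index of 0.20 ± 0.17 was not. NPC1, the membrane transporter that exports cholesterol with NPC2, varied more between RA libraries, at 22.6, 54 and 44.4 RPKM, than its means differed, and was called in neither index.

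MCOLN1 (chr19:7587510-7598895, plus strand), a lysosomal cation channel that releases calcium, went the other way from the rest of the membrane group. It was at 17.3 and 15.6 RPKM in TR, 11.6, 5.5 and 6.77 in RA, and 5.91 and 7.74 in TA. All RA libraries stood below both TR libraries, with the first RA library nearest to them, and TA overlapped with RA. Its stability index was -1.11 ± 0.31 (limma adjusted p = 0.014), and the call was lost without the first TR library (adjusted p = 0.12) and without the second (adjusted p = 0.089), as well as with the libraries centred (index -0.44, adjusted p = 0.23). Its translation index of -0.16 ± 0.31 was the lowest of the membrane group and was not called. In the stability index MCOLN1 lay above 38.5% of the genes tested, of which 48% were called below 0.

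**Figure D2:**
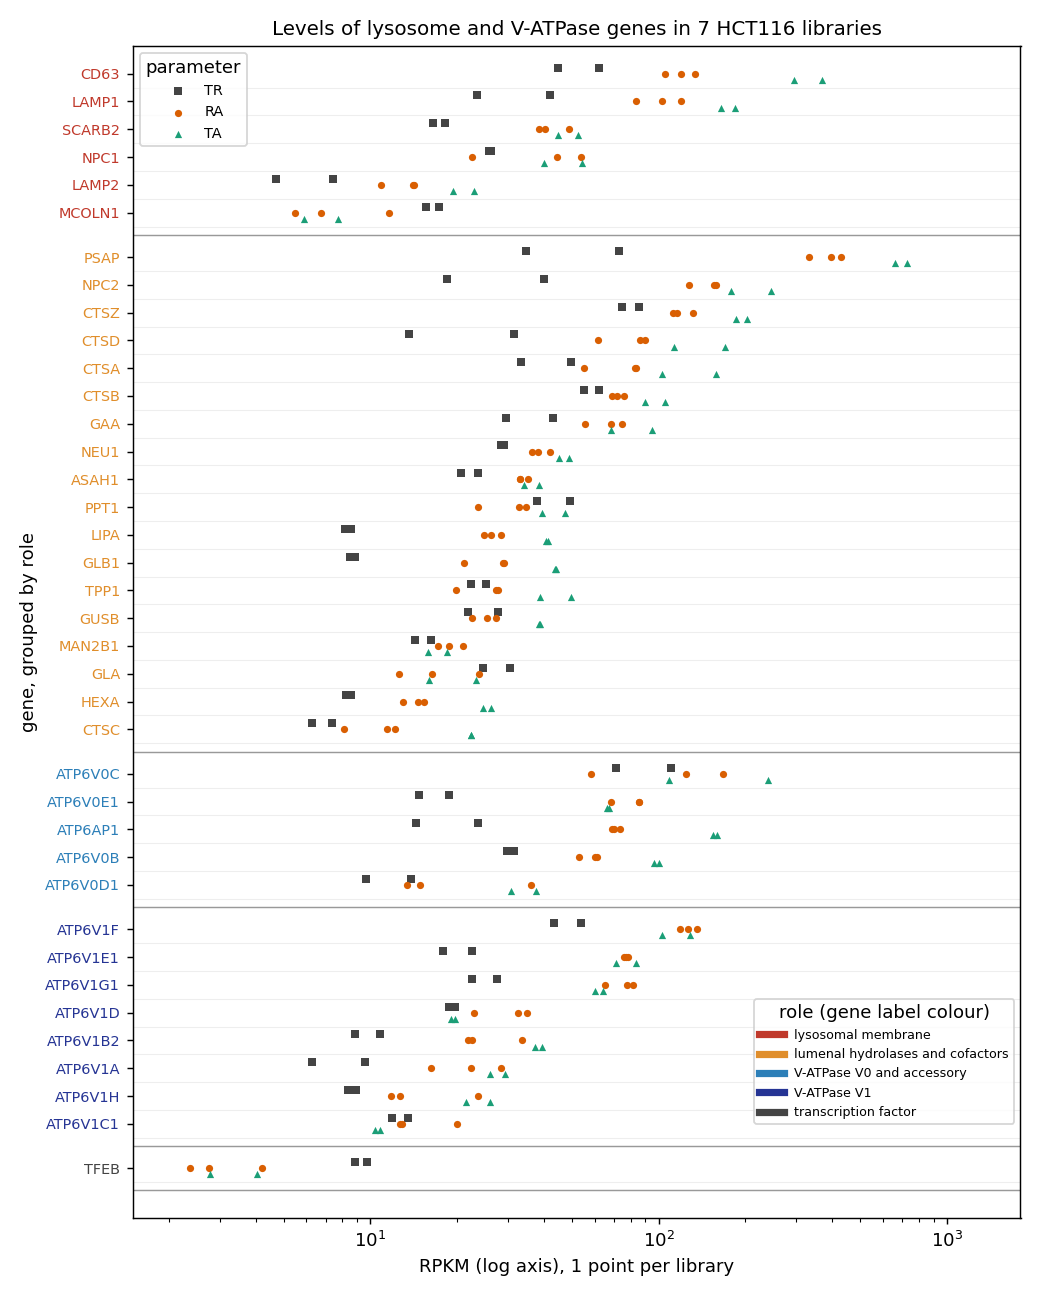
RPKM of each gene (log x axis) in the 7 libraries, with 1 point per library, squares for TR, circles for RA and triangles for TA; genes are grouped by role and ordered by mean RA, with gene names coloured by role. PSAP is the highest gene in RA and TA, CD63 has TA well above RA, several V1 subunits have TA at or below RA, and TFEB and MCOLN1 have TR above RA.

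Among the 18 lumenal genes, 12 were called above 0 in the stability index and 0 below, against 19.2% and 48% of all genes tested. In the translation index 7 were called above 0 and 0 below, against 6.66% and 29.2% of all. Before adjustment, GLA and PPT1 had p under 0.05 below 0 in the stability index, and no lumenal gene had p under 0.05 below 0 in the translation index. The highest lumenal gene in RA and TA was PSAP (chr10:73576055-73611008, minus strand), the precursor of the saposins that present sphingolipids to their hydrolases. It was at 73 and 34.8 RPKM in TR, 333, 429 and 397 in RA, and 729 and 662 in TA, with no overlap between parameters. Its stability index of 2.93 ± 0.33 (limma adjusted p = 0.0001), a 7.61-fold level, was the highest of the 38 genes, and its translation index of 0.85 ± 0.33 was not called (limma adjusted p = 0.077). In TR PSAP stood above 91.3% of the genes tested, and in TA above 99.7%.

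NPC2 (chr14:74942895-74960880, minus strand), the small lumenal protein that hands cholesterol to NPC1, was second in the stability index. It was at 40.1 and 18.4 RPKM in TR, 158, 127 and 156 in RA, and 178 and 246 in TA. As with PSAP, the TR libraries lay far apart, the first being the higher, and both were below every RA library. The stability index of NPC2 was 2.42 ± 0.33 (limma adjusted p = 0.0003) and its translation index 0.52 ± 0.33, not called. CTSD (chr11:1773982-1785803, minus strand), the main aspartic protease of the lysosome, had the largest ratio between the TR libraries of the 38 genes, at 31.4 and 13.6 RPKM. It was at 86.4, 61.4 and 89.5 RPKM in RA and at 113 and 170 in TA, so the parameters did not overlap. Its stability index of 1.91 ± 0.37 was called (limma adjusted p = 0.002) and its translation index of 0.83 ± 0.37 was not (limma adjusted p = 0.11).

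CTSC (chr11:87998237-88092852, minus strand), the dipeptidyl peptidase that activates serine proteases, had the highest translation index of the lumenal group. It was at 6.27 and 7.34 RPKM in TR, 8.09, 12.2 and 11.4 in RA, and 22.4 and 22.3 in TA. Both TA libraries stood above every RA library and hardly differed from each other. The translation index was 1.10 ± 0.22 (limma adjusted p = 0.0086), lost without the first TA library (adjusted p = 0.054), and the stability index 0.61 ± 0.22 (limma adjusted p = 0.037), a call kept only without the first RA library when 1 library was left out (highest adjusted p 0.19). All 6 protease genes (CTSA, CTSB, CTSC, CTSD, CTSZ and TPP1) had a translation index above 0, from 0.42 (CTSB, a cysteine protease) to 1.10, with a median of 0.82; CTSC, CTSZ (a carboxypeptidase) and TPP1 (a tripeptidyl peptidase) were called. TPP1 reached its translation index of 0.83 with a stability index of 0.06, as its TR and RA libraries overlapped at 19.9 to 27.8 RPKM.

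The 7 glycosidase genes had a lower median translation index, 0.30. HEXA (the alpha subunit of hexosaminidase), GLB1 (beta-galactosidase) and GUSB (beta-glucuronidase) were called above 0, at 0.82, 0.74 and 0.63, while NEU1 (sialidase), GAA (acid alpha-glucosidase) and GLA (alpha-galactosidase A) had 0.28, 0.30 and 0.18 and were not called. GUSB, like TPP1, was called in the translation index with a stability index near 0 (0.02). MAN2B1 (chr19:12757325-12777556, minus strand), the lysosomal alpha-mannosidase, had the lowest translation index of the lumenal group, and it was at 14.3 and 16.3 RPKM in TR, 17.2, 18.8 and 20.9 in RA, and 15.9 and 18.5 in TA. The 7 values spanned less than a factor of 1.5, and RA and TA overlapped. The index was -0.14 ± 0.17 and was not called.

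Of the lipid hydrolases, LIPA (acid lipase) was called above 0 in both indices, with a stability index of 1.65 and a translation index of 0.63. ASAH1 (chr8:17913501-17942507, minus strand), acid ceramidase, was at 20.6 and 23.6 RPKM in TR, 35.2, 33.1 and 33.1 in RA, and 34.2 and 38.5 in TA. RA was apart from TR by more than either varied, and TA overlapped with RA. Its stability index of 0.61 ± 0.16 was called (limma adjusted p = 0.0083), and its translation index of 0.10 ± 0.16, the second lowest of the lumenal group, was not. PPT1, a thioesterase that removes palmitate, had a stability index of -0.52 ± 0.22 (limma adjusted p = 0.067), and GLA one of -0.68 ± 0.29 (limma adjusted p = 0.07). Without the first RA library both were called below 0 (adjusted p = 0.044 and 0.014), and the count of genes called below 0 then stood at 4.

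In the V0 sector, ATP6AP1 (chrX:153656979-153664862, plus strand), the type I membrane protein that accompanies the pump, led the translation index. It was at 23.6 and 14.4 RPKM in TR, 70.1, 69.1 and 73.6 in RA, and 154 and 159 in TA. The RA libraries lay close together, as did the TA libraries, and no parameter overlapped with another. Its stability index was 1.94 ± 0.22 (limma adjusted p = 0.00011) and its translation index 1.14 ± 0.22 (limma adjusted p = 0.0077), above 99.1% of the genes tested. ATP6V0B, a proteolipid of the rotating ring, was also called in both, at 0.92 and 0.76.

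ATP6V0E1 (chr5:172410774-172462448, plus strand), a very small membrane subunit, had the lowest translation index of the V0 group. It was at 18.7 and 14.7 RPKM in TR, 85.8, 85.6 and 68.2 in RA, and 66.4 and 67.2 in TA. Both TA libraries stood just below the lowest RA library. Its stability index of 2.25 ± 0.19 was called (limma adjusted p = 1.7e-05) and its translation index of -0.25 ± 0.19 was not (limma adjusted p = 0.33). ATP6V0C, the main proteolipid of the ring, and ATP6V0D1, the subunit that joins the ring to the central stalk, were called in neither index. ATP6V0C was at 167, 58.5 and 124 RPKM in RA and at 109 and 240 in TA, and ATP6V0D1 at 36.1, 14.9 and 13.4 in RA, so their replicates spread widely. In ATP6V0C the second RA and the first TA library were the low ones.

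The V1 subunits had the highest median stability index and the lowest median translation index of the role groups. Of the 8, 7 were called above 0 in the stability index, against 19.2% of all genes tested, and the median index was 1.38. In the translation index 0 of the 8 were called above 0, which is near the 6.66% of all genes tested, and 0 below, against 29.2% of all. The median translation index was -0.07, above the -0.37 of all genes tested. With the libraries centred these medians were 0.43 and 0.13. ATP6V1A (chr3:113465617-113530903, plus strand), the catalytic subunit, was at 9.56 and 6.26 RPKM in TR, 28.4, 16.3 and 22.3 in RA, and 26 and 29.3 in TA. RA stood above TR without overlap, and TA overlapped with RA. Its stability index was 1.48 ± 0.28 (limma adjusted p = 0.0017) and its translation index 0.34 ± 0.28, not called. ATP6V1E1 of the peripheral stalk had the highest stability index of the sector, 1.94 ± 0.17, and a translation index that rounds to 0.

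ATP6V1H (chr8:54628103-54756118, minus strand), the regulatory subunit, and ATP6V1B2 (chr8:20054892-20084330, plus strand), the nucleotide-binding partner of ATP6V1A, had the highest translation indices of the V1 group. ATP6V1H was at 8.91 and 8.39 RPKM in TR, 23.6, 12.7 and 11.8 in RA, and 26 and 21.5 in TA, and ATP6V1B2 at 10.8 and 8.87 in TR, 33.5, 21.9 and 22.5 in RA, and 39.5 and 37.2 in TA. In both genes the first RA library stood apart from the other two, and in ATP6V1H it overlapped with TA. The translation indices were 0.63 ± 0.30 for ATP6V1H and 0.59 ± 0.22 for ATP6V1B2, and neither was called (limma adjusted p = 0.13 and 0.073).

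ATP6V1D (chr14:67761088-67826982, minus strand), of the central stalk, and ATP6V1C1 (chr8:104033291-104085279, plus strand), whose release accompanies the parting of V1 from V0, stood at the other end. ATP6V1D was at 18.8 and 19.6 RPKM in TR, 35, 32.5 and 22.9 in RA, and 19.1 and 19.7 in TA, and ATP6V1C1 at 13.5 and 11.9 in TR, 20, 12.9 and 12.7 in RA, and 10.8 and 10.4 in TA. In both genes every TA library was below every RA library, and in ATP6V1D the TA and TR values were nearly the same. The translation index of ATP6V1D was -0.61 ± 0.21 (limma adjusted p = 0.051), called without the third RA library (adjusted p = 0.028), and that of ATP6V1C1 -0.48 ± 0.23 (limma adjusted p = 0.14). ATP6V1C1 was the V1 gene not called in the stability index (0.23 ± 0.23).

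**Figure D3:**
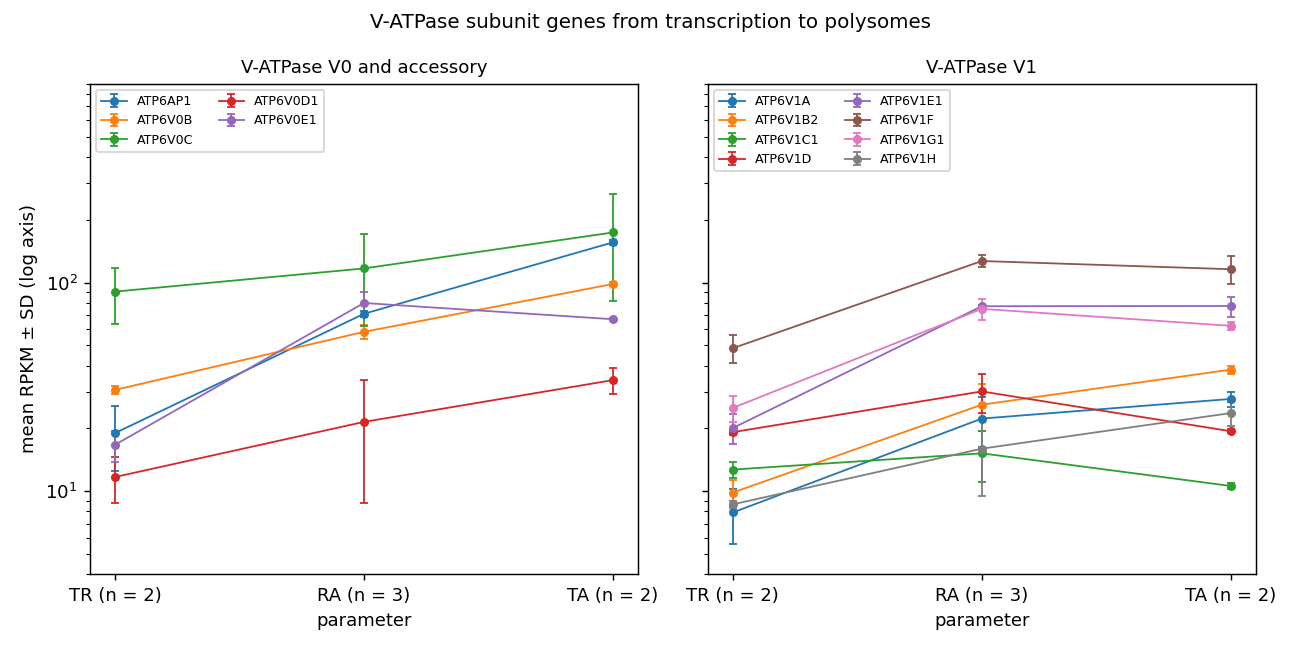
Mean RPKM (log y axis) of the V0 and accessory genes (left) and of the V1 genes (right) in TR (n = 2), RA (n = 3) and TA (n = 2), with bars of 1 SD between libraries. RA is above TR for all genes shown. From RA to TA, ATP6AP1, ATP6V0B, ATP6V1B2 and ATP6V1H go up by more than their SD, and most V1 genes stay level or go down.

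The 24 lysosomal membrane and lumenal genes were set against the 8 V1 genes within each pair of libraries, where library scaling cancels. In the translation index the median of the lysosomal genes was 0.63 and that of the V1 genes -0.07, a difference of 0.70 ± 0.15 (SD over 6 pairs of 1 TA and 1 RA library), which ran from 0.45 to 0.85 and was above 0 in 6 of 6 pairs. Of the lysosomal genes, 22 of 24 lay above the V1 median, and 1 of 8 V1 genes lay above the lysosomal median. In the stability index the order was the other way, with 0.69 for the lysosomal genes and 1.38 for the V1 genes, a difference of -0.69 ± 0.28 (SD over 6 pairs of 1 RA and 1 TR library), which ran from -1.01 to -0.28 and was below 0 in 6 of 6 pairs. The pairs share libraries and the genes are not replicates, so no test was made of these differences.

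**Figure D4:**
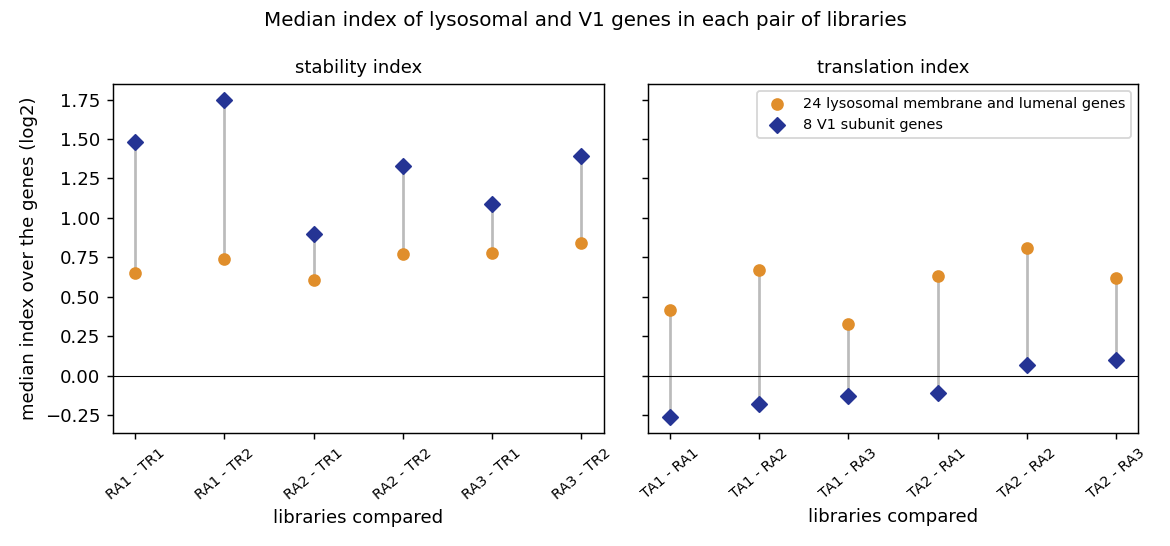
Median index (log2, y axis) of the 24 lysosomal membrane and lumenal genes (circles) and of the 8 V1 genes (diamonds) in each pair of libraries (x axis), for the stability index (left) and the translation index (right). The V1 median is above the lysosomal one in all 6 pairs at the left and below it in all 6 at the right; the gaps at the left are widest in the pairs with the first RA library.

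Levels were compared within each library as well. The lysosomal median was above the V1 median by 0.68 and 0.69 (log2 of RPKM) in the TR libraries, by 0.03, 0.41 and 0.61 in the RA libraries, and by 0.47 and 0.54 in the TA libraries. The gap was thus nearly the same in both TR libraries, and in RA it depended on the library, with the first near 0. Both TA gaps lay within the range of the RA gaps and below that of the third RA library. Compared by median levels, the gap therefore did not widen from RA to TA in every pair of libraries. The difference of the median translation indices, taken gene by gene, was above 0 in each pair. Without the first RA library the stability difference was -0.42, and the translation difference 0.66. With means over the genes in place of medians the stability difference was -0.37.

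Calls in both indices were made for 8 genes, all above 0 in both: CD63, CTSC, CTSZ, GLB1, HEXA, LIPA, ATP6AP1 and ATP6V0B. A further 18 were called above 0 in the stability index alone, TPP1 and GUSB above 0 in the translation index alone, MCOLN1 and TFEB below 0 in the stability index alone, and 8 in neither. The share of all genes tested with each joint pattern was not counted, so these counts only describe the 38 genes. Across the 38 genes the indices had a Pearson r of 0.21 and a Spearman rho of 0.23, a description over genes that share all libraries; RA enters both indices with opposite sign.

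Of the 10 calls in the translation index, those of CD63, HEXA and ATP6AP1 were kept whichever of the 7 libraries was left out. The call of ATP6V0B was lost without the first TA library (adjusted p = 0.06), that of TPP1 without the second (0.11), and that of GLB1 without either (at most 0.091). GUSB and LIPA were lost without either TA library or the third RA library (at most 0.12 and 0.08), and CTSZ also without the second RA library (at most 0.1). The count was 4 without the first TA library and 5 without the second. In the stability index, GAA was lost without the second TR library (adjusted p = 0.12), CTSZ without that or the third RA library (at most 0.089), CTSA without either TR library, the first RA library or the third (at most 0.27), and NEU1 without any 1 TR or RA library (at most 0.083). ATP6V1D was lost without either TR library or the first or second RA library (at most 0.13), and ATP6V1H without either TR or either TA library (at most 0.2). All these adjusted p are from limma.

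TFEB (chr6:41651716-41703997, minus strand) had the lowest stability index of the 38 genes. It was at 8.84 and 9.74 RPKM in TR, 4.2, 2.37 and 2.76 in RA, and 2.77 and 4.04 in TA. Every RA library stood below both TR libraries, and TA overlapped with RA. The index was -1.59 ± 0.30 (limma adjusted p = 0.0017), called with any 1 library left out (adjusted p at most 0.036), and the translation index of 0.14 ± 0.30 was not called. In TR TFEB stood above 34.2% of the genes tested and in RA above 29.6%. Its stability index lay above 30.5% of the genes tested, whose median was -0.58 and of which 48% were called below 0. The median stability indices of the membrane and lumenal genes were 1.14 and 0.61.

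Sequence features not used in choosing the genes were compared on the canonical GENCODE transcripts (release 44, in hg19 coordinates). The 5′ untranslated regions were short in the lumenal group, with a median of 43.5 bases, and not in the membrane group, with 145. The median was 99 in the V1 genes and 136 over 13096 tested genes with a coding transcript. Across the 38 genes the translation index went with 5′ untranslated length at a Spearman rho of -0.31, and over the 13096 genes at -0.32. The percentage of the transcript in untranslated regions had a median of 41.3 in the lysosomal genes, 51.4 in the V1 genes and 49.6 over all, with a rho to the translation index of -0.25 in the 38 and -0.18 over all. Transcript GC was 51.2% in the lysosomal and 43% in the V1 genes (medians). These correlations are descriptions over genes, which are not independent replicates.

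The genes were then set beside others of like coding length. In the class from 600 to 2000 bases, which held 29 of the 38 genes, the median translation index was 0.63 against -0.24 over 7586 tested genes of that class. The 5 genes under 600 bases (NPC2, ATP6V0C, ATP6V0E1, ATP6V1F and ATP6V1G1) had a median of -0.14 against -0.53 over 1671 genes, and the 4 over 2000 bases (NPC1, GLB1, GAA and MAN2B1) 0.30 against -0.46 over 3839 genes. Of the 6 V1 genes in the middle class, ATP6V1C1 and ATP6V1D stood below the median of all its genes, and ATP6V1A, ATP6V1B2, ATP6V1E1 and ATP6V1H stood above it.

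Some values rest on reads that could belong to other genes. Exons of ATP6V1F overlap those of KCP by 23.2% of their length, CTSA overlaps PLTP by 10.8%, GLB1 overlaps TMPPE by 5.39% and MCOLN1 overlaps PNPLA6 by 0.288%, and the counting is not stated to use strand. GENCODE also places 98.8% of the exons of ATP6V0C and 62.1% of those of CTSD within other gene models that are not listed in the table. The same holds for 35.7% of the exons of MAN2B1, 22.1% of those of TPP1 and 21.7% of those of HEXA. With such models included, the overlap was 24.1% for CTSA and 8.4% for MCOLN1. NPC1, ATP6V1A and ATP6V1C1 had smaller overlaps of this kind. GUSB has 21 pseudogene symbols, ATP6V1G1 has 7, ATP6V0C and ATP6V0E1 have 4 each and ATP6V1E1 has 3, so how reads were split between them and these copies is uncertain.

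The other lysosomal genes, a list of 40 symbols of which 36 were tested, were called in both directions. The stability index put 16 above 0 and 14 below (19.2% and 48% of all genes tested), with a median of -0.15, and in the translation index 7 were above and 4 below (6.66% and 29.2% of all), with a median of 0.24. With the libraries centred these counts were 18 and 8 in the stability index, against 35.4% and 33.7% of all genes tested. In the translation index they were then 15 and 1, against 19% and 9.81% of all. LAPTM4A, a membrane protein, had the highest called stability index (2.33 ± 0.18; limma adjusted p = 1.3e-05) and CTNS, the cystine exporter, the lowest (-3.22 ± 0.26; adjusted p = 1.4e-05), with 29.3 RPKM in TR and 3.12 in RA. IDUA, the iduronidase, had the lowest called translation index (-1.57 ± 0.36; limma adjusted p = 0.013). Exons of CTNS overlap TAX1BP3 by 5.05% and those of IDUA overlap SLC26A1 by 6.49%.

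Of 12 other V-ATPase symbols, which include isoforms of restricted tissue use, 9 were tested. Calls were made for 1 above 0 and 4 below in the stability index, and for 1 above and 3 below in the translation index. These are near the shares over all genes tested (19.2% and 48%, and 6.66% and 29.2%). With the libraries centred the counts were 2 and 3, and 2 and 0, against 35.4% and 33.7%, and 19% and 9.81% of all. The gene above 0 in both was ATP6AP2, the other accessory membrane subunit, with a mean of 9.32 RPKM in TR, 61.7 in RA and 112 in TA, a stability index of 2.79 ± 0.29 and a translation index of 0.86 ± 0.29 (limma adjusted p = 6e-05 and 0.049), beside 1.94 and 1.14 for ATP6AP1. ATP6V1G2, a V1 isoform known from neurons, had the lowest stability index (-4.27 ± 0.38; limma adjusted p = 2.6e-05), from 13.5 RPKM in TR to 0.593 in RA, and ATP6V1E2, a V1 isoform known from testis, the lowest called translation index (-1.37 ± 0.28; adjusted p = 0.0093), a call not made with the libraries centred.

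Of 23 symbols for sorting to the lysosome and for the regulation of TFEB and its relatives, 21 were tested. In the stability index 5 were called above 0 and 9 below, and in the translation index 1 above and 10 below, with a median translation index of -0.81. Over all genes tested the shares were 19.2% and 48%, and 6.66% and 29.2%, so the stability counts were near them. Centring changed these counts to 11 and 2, and to 3 and 2. The centred shares over all genes tested were 35.4% and 33.7%, and 19% and 9.81%. With centring it was thus the translation counts that were near the shares, and not the stability counts. LAMTOR5, of the Ragulator complex that anchors Rag GTPases on the lysosome, had the highest called stability index (1.74 ± 0.19; limma adjusted p = 8.7e-05) and NAGPA, which uncovers the mannose 6-phosphate tag, the lowest (-1.53 ± 0.43; adjusted p = 0.013), which was not called with the libraries centred. RRAGA, a Rag GTPase, was the gene called above 0 in the translation index (0.95 ± 0.17; limma adjusted p = 0.0066), and FNIP2, a partner of folliculin, the lowest (-1.74 ± 0.36; adjusted p = 0.0092).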

How the data were processed

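RPKM values for each gene and library were deposited by the authors, who mapped the reads to hg19 with TopHat, counted them over exons with HTSeq and scaled the counts by exon length and mapped reads. The counting mode, strand setting and gene annotation are not given in the sources used here. Library sizes and reads were worked out from the RPKM steps: 100% of values above 0 came out whole (tolerance 0.01 reads), and on simulated data 7 of 7 library sizes were recovered. The precision of a value follows from its reads, with the TR libraries least deep; the reads cover counting error only.

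Genes whose mean reached 1 RPKM in TR, RA or TA (14305 genes) were fitted as log2(RPKM + 0.1) by limma 3.58.1 in R 4.3.3, with all 7 libraries, no covariate and a trend. On simulated data for the translation index over 14305 genes, 100% of 200 genes changed by 2 in log2 were called, and 15 of 14105 others. The simulated spread was the same for every gene, and the change was larger than any translation index of the 38 genes (at most 1.47). It therefore does not show how often changes of the size reported here would be called. Groups came from the sample labels.

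Values in every library are given for the highest and lowest genes of each role group and of the stability index, and for TFEB, LAMP1, CTSD and ATP6V1A; of other lists, the highest and lowest called gene is named, except 1 that is not reported here. The members and lists were chosen with earlier results of these data known. Protein sequence features were not analysed here. Alternatives were the pseudocount, filter, centring, the trend, libraries of 2 parameters only, each library left out, a replicate block, means over genes, and voom on the recovered reads, which was chosen after seeing the data.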

Additional observations from a re-analysis of the deposited data

How the results depend on the processing

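No index that was called among the 38 genes changed sign under the alternatives run. Shares over all genes were not counted for the replicate block or with a library left out, so those counts only describe the 38 genes. Centring each library on its median raised every stability index by 0.67 and every translation index by 0.50, which gave 1 gene called below 0 and 26 above 0 respectively, in place of 2 and 10. With it the median stability index was 1.82 for the membrane genes, 1.28 for the lumenal, 1.59 for the V0 and 2.05 for the V1 genes, and the median translation index 0.99, 1.13, 1.27 and 0.43. The lysosomal minus V1 difference in the stability index was -0.37 with means over genes. ATP6V1D made the count below 0 in the translation index 1 in place of 0 with a filter of at least 1 RPKM in each parameter and with voom. With 1 library left out, that count ran from 0 to 1, the count below 0 in the stability index from 1 to 4, the count above 0 in the translation index from 4 to 14, and the median stability index of the membrane genes from 0.86 to 1.38; a group of 2 then has a lone library, which is assumed to vary like the others.

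With the replicate number as a block, which leaves the third RA library without a partner, 1 gene was called below 0 in the stability index and 2 above 0 in the translation index. The numbers did not pair the libraries: over 10825 genes, the difference between the first and second RA library had an r of -0.562 with that between the TA libraries, 0.149 with that between the TR libraries, and TR with TA 0.020. The difference between the second RA library and the third had an r of 0.741 with that between the TA libraries; the labels tie no RA library to a TA library in that way, and no fit used it. Depth limits TR most, where 1 RPKM at the median exon length stood for 10.5 reads in the smaller library. Protein features were planned and not run, since no protein sequences were at hand.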

Other observations

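The Rag GTPases and the Ragulator complex sit on the cytosolic face of the lysosome and were looked at as a group after their values had been seen. Of the 5 Ragulator genes, LAMTOR1 (-1.05), LAMTOR3 (-0.95) and LAMTOR5 (-0.92) were called below 0 in the translation index by limma, and LAMTOR4 (-0.52) and LAMTOR2 (0.40) were not called. Of the 4 Rag GTPase genes, RRAGA (0.95) was called above 0, RRAGB (-1.24) and RRAGD (-1.52) below 0, and RRAGC (-0.42) was not called. Over all genes tested, 6.66% were called above 0 and 29.2% below 0 in this index (19% and 9.81% with the libraries centred). LAMTOR5 was at a mean of 90.9 RPKM in RA and 48.3 in TA, and RRAGA was at 43.2 in RA and 83.2 in TA. Centring the libraries raised each translation index by 0.50, which turned that of RRAGC above 0; RRAGA and RRAGD then kept their calls, LAMTOR2 was called above 0, and LAMTOR1, LAMTOR3, LAMTOR5 and RRAGB, still below 0, were no longer called. The difference between these genes and the lumenal genes was not tested.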
